A study of Mus musculus with 2 samples.

Results

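The antiviral effectors Mx1, Mx2, Oas1a, Oas2, Oas3, Oasl1, Oasl2, Ifit1, Ifit2 and Ifit3 were followed in B cells of NOD mice with and without a human AIRE transgene. All 10 genes had higher signal on the transgenic array. Of their 10 probe sets, 9 were at least 2-fold higher, beside 5.24% of all non-control probe sets. The differences ran from 1.81-fold for Oasl1 to 13.2-fold for Mx2, with a median log2 ratio of 1.71. Members were all probe sets to which the platform annotation gives 1 of these symbols, dim ones included. Each gene had 1 such probe set, which makes 10 of the 45037 non-control probe sets on the array and 10 of its 18193 named genes. The genes were chosen by the intensities of these same 2 arrays, which had shown them higher in transgenic cells, so every difference given is a description and none carries a test.

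The samples were B220-positive B cells lacking Thy1 and CD11c, from NOD mice aged 8 weeks, and the tissue is not given in the sources used here. NOD is an inbred strain that develops autoimmune diabetes. The transgenic mice carried human AIRE, a transcriptional regulator best known from thymic epithelium, driven by a promoter of MHC class II genes, which antigen-presenting cells in general use. The other mice were non-transgenic. Each group was 1 array hybridised with biotin-labelled cDNA from RNA of 2 mice, and the transgene came from 1 established line. With 1 array a group, no ratio has a replicate check. Array-wide, the deposited intensities had medians of 93.1 (transgenic) and 104.3 (non-transgenic), and intensities are given after these medians were aligned. Ratios are log2 of transgenic over non-transgenic intensity with values under 25.1, the pooled 25th percentile, set to that floor. The pooled median, 98.8, served as the limit for a dim signal.

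Type I interferons act on a cell surface receptor whose kinases activate transcription factors. With IRF9 these bind the interferon-stimulated response element (ISRE) in the promoters of target genes. Mx proteins are dynamin-like GTPases that block viral ribonucleoproteins. Oas enzymes sense double-stranded RNA and make 2'-5' oligoadenylates, which activate the ribonuclease RNase L, while the Oas-like proteins share their fold. Ifit proteins bind viral RNA or its cap and hinder its translation. In resting cells these genes are commonly held low, and they are widely used as a readout of interferon exposure.

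The genes lie in 4 groups. Mx1 and Mx2 are on chromosome 16, Oas1a, Oas2 and Oas3 lie together on chromosome 5, Oasl1 and Oasl2 lie elsewhere on chromosome 5, and Ifit1, Ifit2 and Ifit3 are on chromosome 19. RefSeq lists both Mx genes as transcribed pseudogenes in its C57BL/6J assembly, and their NOD alleles were not examined here. Promoter sequence, from 250 bases before to 50 bases after a transcript start, was matched in RefSeq's GRCm38.p6 table for 7 of the 10 genes, in 8 windows because Ifit2 has 2 starts. The ISRE core was searched as GAAA, any 2 bases and GAAA again, or on the other strand TTTC, any 2 bases and TTTC. It was present in 4 of these 8 windows (Ifit1, Ifit3, Oas1a and Oas3). Of all 32851 windows in the table, 3.44% held it. For these 4 genes the 170 bases before the start follow, 5′ to 3′ on the gene's own strand, because they hold every ISRE core found; capitals mark the core.
Ifit1: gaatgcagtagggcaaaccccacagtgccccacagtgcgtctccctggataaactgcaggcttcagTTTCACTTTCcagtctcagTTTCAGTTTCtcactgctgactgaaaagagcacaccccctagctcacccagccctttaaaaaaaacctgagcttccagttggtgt
Ifit3: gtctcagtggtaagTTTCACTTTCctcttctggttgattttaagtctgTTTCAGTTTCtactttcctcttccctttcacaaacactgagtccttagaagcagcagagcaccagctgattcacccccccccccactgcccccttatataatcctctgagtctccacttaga
Oas1a: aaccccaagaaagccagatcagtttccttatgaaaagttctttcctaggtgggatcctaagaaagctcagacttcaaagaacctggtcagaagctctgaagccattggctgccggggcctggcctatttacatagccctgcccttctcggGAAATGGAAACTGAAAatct
Oas3: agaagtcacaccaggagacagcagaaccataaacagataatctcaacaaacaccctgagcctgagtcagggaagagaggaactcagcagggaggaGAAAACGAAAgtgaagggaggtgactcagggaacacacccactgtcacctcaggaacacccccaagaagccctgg
These stretches are chr19:34640719-34640888 on the plus strand for Ifit1, chr19:34583359-34583528 on the plus strand for Ifit3, chr5:120907526-120907695 on the minus strand for Oas1a and chr5:120777660-120777829 on the minus strand for Oas3.

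Ifit1 held 2 cores in reverse orientation, which began 104 and 85 bases before the start. Ifit3 also held 2 in reverse orientation, 156 and 122 bases before it. In Oas1a 2 forward cores overlapped, beginning 20 and 14 bases before the start, and Oas3 held 1 forward core 75 bases before it. No match to these letters was present in the windows of Oasl1, Oasl2 and Ifit2. The core of the gamma-activated site, TTCNNNGAA, which reads the same on both strands, was present in the Oas1a window and in 1 of the Ifit2 windows, and in 8.30% of all windows. Among 29 other interferon-induced genes with promoter sequence, 13 held the ISRE core. The genes with the core included Ifit1 and Oas3, whose log2 ratios were over 2, and Oas1a, whose ratio was 1.12.

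**Figure D1:**
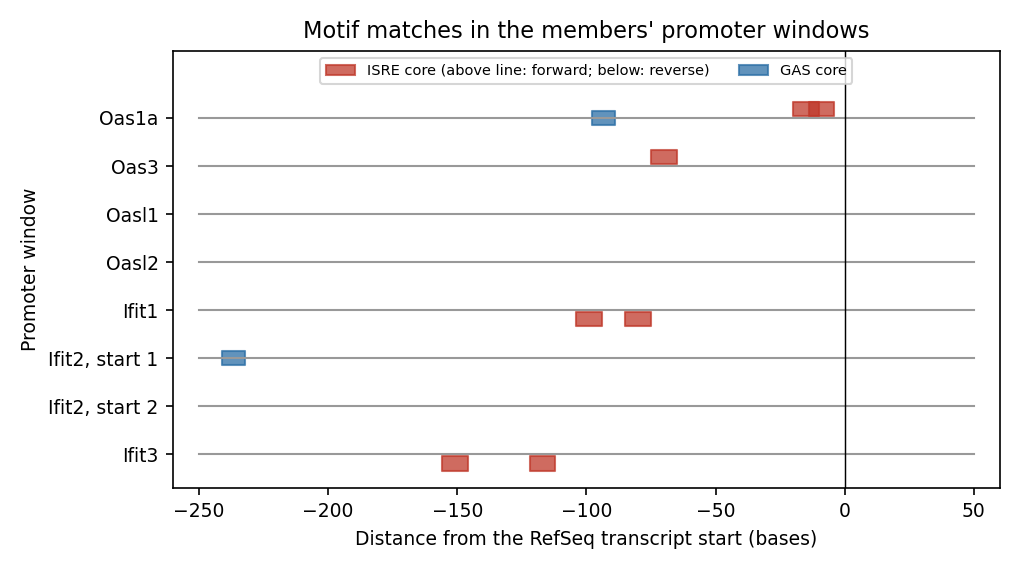
Matches to the ISRE core (red, above the line when forward and below it when reverse) and to the gamma-activated site core (blue) in the 8 promoter windows of 7 member genes; the x axis is the distance in bases from the RefSeq transcript start. The ISRE core is present in Oas1a, Oas3, Ifit1 and Ifit3, always before the start.

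Of the Mx genes, Mx2 had by far the larger difference. Its probe set stood at 437 in transgenic and 33.1 in non-transgenic cells, a log2 ratio of 3.72. The non-transgenic value lay under the pooled median and close to the floor. Mx1 was at 493 in transgenic against 243 in non-transgenic cells, 2.03-fold higher, with both values above the pooled median. Both genes were thus above the pooled median in transgenic cells, and Mx1 alone in non-transgenic cells. In bulk RNA, fewer cells of a type and less RNA per cell cannot be told apart.

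The catalytic Oas genes covered a wide span of differences. Oas3, whose product is the longest of these synthetases and prefers long double-stranded RNA, was at 216 in transgenic against 29.5 in non-transgenic cells, 7.34-fold higher (log2 ratio 2.88). Its non-transgenic value was dim, like that of Mx2. Oas2 was at 683 against 164, 4.16-fold higher (2.06), with both values above the pooled median. Oas1a was at 557 against 256, 2.18-fold higher (1.12). Oas1a has close copies in its cluster, Oas1g among them, so which of them its probe set read is uncertain.

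The Oas-like genes had both values above the pooled median. Oasl2, which has kept synthetase activity in the mouse, was at 453 in transgenic against 130 in non-transgenic cells, 3.49-fold higher (1.80). Oasl1, which lacks that activity and is known as an inhibitor of Irf7 translation, was at 501 against 276 (0.86). It was the only member under 2-fold.

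All 3 Ifit genes were over 2-fold higher. Ifit1, which binds RNA caps that lack host methylation, was at 319 in transgenic against 58.3 in non-transgenic cells, 5.48-fold higher (2.45). Here too the non-transgenic value was under the pooled median. Ifit3, which stabilises Ifit1 complexes in human cells, was at 708 against 230, 3.08-fold higher (1.62). Ifit2, a partner of both that is linked to apoptosis, was at 632 against 237, 2.67-fold higher (1.42). Ifit3 has a near copy, Ifit3b, and the files do not tell which of them was read.

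**Figure D2:**
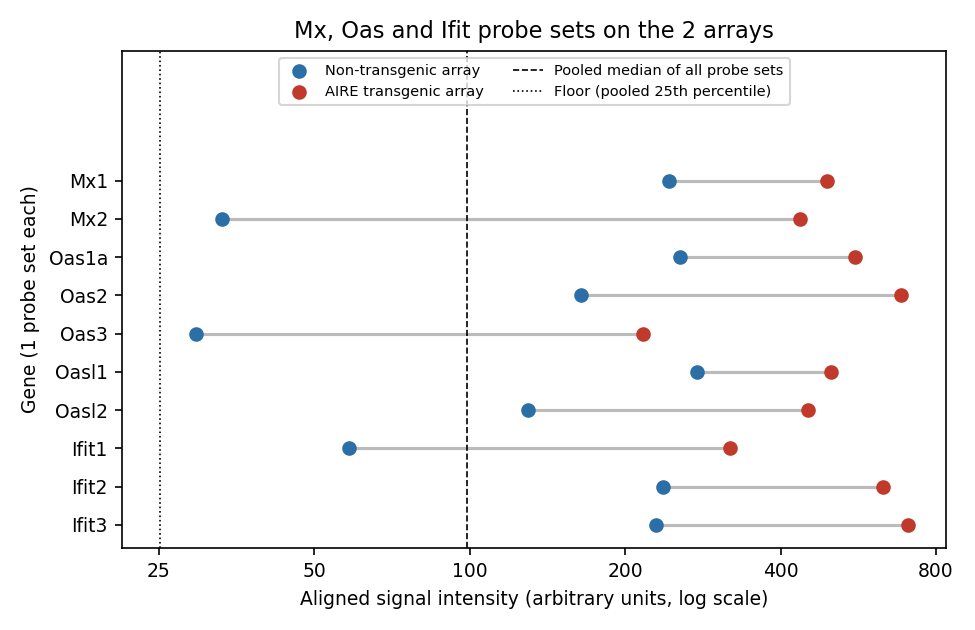
Aligned signal intensity (arbitrary units, log axis) of the 10 probe sets on the transgenic (red) and non-transgenic (blue) array, 1 array each and so no error bars; lines mark the floor and the pooled median of all probe sets. Transgenic values run from 216 to 708 and non-transgenic values from 29.5 to 276, and those of Mx2, Oas3 and Ifit1 on the non-transgenic array lie under the pooled median. Levels of different probe sets are not on a common scale.

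Seen together, all 10 probe sets lay above the pooled median in transgenic and 7 in non-transgenic cells. The 3 dim on the non-transgenic array, Mx2, Oas3 and Ifit1, had the 3 largest ratios, and their folds therefore depend on how low signal was treated. With the floor raised to the pooled median their log2 ratios were 2.15, 1.13 and 1.69. Among the other 7 genes, the log2 ratios ran from 0.86 for Oasl1 to 2.06 for Oas2. With the floor at the pooled 25th percentile, ratios within a family ran from 1.02 to 3.72 in Mx, 0.86 to 2.88 in Oas and 1.42 to 2.45 in Ifit.

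Over all 45037 probe sets, 5.24% were higher in transgenic cells by 2-fold or more and 5.38% were lower by as much. Without scaling beyond the deposited values these shares were 3.84% and 7.27%. Against this, 9 of the 10 member probe sets were higher by 2-fold and 0 were lower, a count that the choice of the members used and that is given as a description. At a threshold of 1.5-fold all 10 members were higher, beside 15.4% of all probe sets, and at 3-fold 6 were, beside 1.15%. Over probe sets with a mean level in the members' range, from 79.8 to 403, 5.37% were at least 2-fold higher and the median log2 ratio was 0.05. Over probe sets whose higher value reached the pooled median, it was 0.15 (SD 0.62 over 23987 probe sets).

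**Figure D3:**
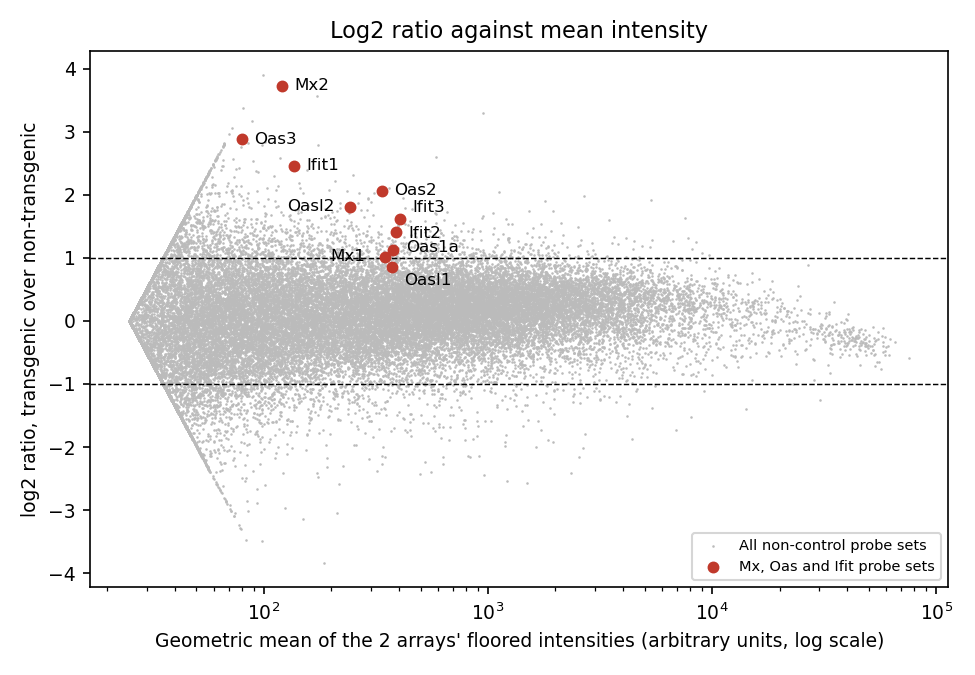
Log2 ratio of transgenic over non-transgenic intensity against the geometric mean of the floored intensities (log axis, arbitrary units) for all 45037 probe sets (grey) and the 10 members (red); dashed lines mark 2-fold. The members lie at mean levels from 79.8 to 403, and Oasl1 alone lies under the upper line.

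No replicate array gives an error for these ratios, but genes with several probe sets show how far readings of 1 gene lie apart. Among 1080 genes with at least 2 probe sets above the pooled median on both arrays and in the same range of mean level, the log2 ratios of 2 probe sets of 1 gene differed by a median of 0.41. The 95th percentile of that difference was 1.19. This scatter holds differences between probe designs and covers no variation between mice. It leaves out probe sets dim on either array and so does not cover Mx2, Oas3 and Ifit1.

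The calls of Mx1 and Oas1a also depended on scaling. Mx1 was at 0.86 without scaling, 0.93 after quantile normalization and 0.92 after loess, under 2-fold in each case. Oas1a was at 0.96 without scaling and at 1.03 and 1.02 after quantile normalization and loess. Under 7 settings, the 70 member values included 0 below 0. Of the 7 settings, the number of members at least 2-fold higher was lowest without scaling, at 7 of 10.

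**Figure D4:**
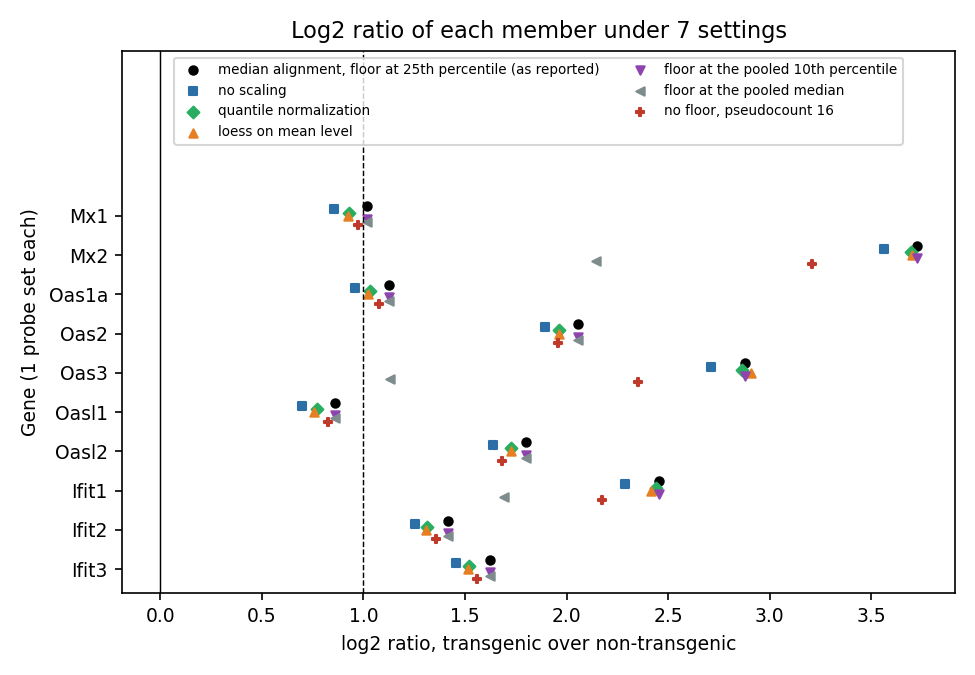
Log2 ratio of each member probe set (1 row per gene) under the reported setting and 6 alternatives, with 2-fold dashed. Every symbol lies right of 0; Mx2, Oas3 and Ifit1 move most, to 2.15, 1.13 and 1.69, with the floor at the pooled median, and Mx1 and Oas1a cross the 2-fold line.

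Other genes of the Oas and Ifit families were read by 8 probe sets of 7 genes. Of these probe sets, 2 were higher by 2-fold or more, beside 5.24% of all probe sets, and 0 were lower. Oas1b, known for flavivirus resistance in the mouse, was at 357 in transgenic against 140 in non-transgenic cells (1.35). Ifit1bl1, an Ifit1-like gene, was at 574 against 230 (1.32). Ifit1bl2 had one probe set at 197 against 121 (0.71) and another that was dim on both arrays (-0.38). Oas1c was at 430 against 353 (0.28). Oas1e, Oas1f and Oas1h were dim on both arrays, with transgenic values of 14.0, 29.1 and 4.78.

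Further interferon-induced genes outside these families had a smaller median difference. Of 61 probe sets of 34 genes, 7 were at least 2-fold higher (11.5%) and 1 lower, beside 5.24% and 5.38% of all probe sets. Their median log2 ratio was 0.45. Without scaling, after quantile normalization or after loess 5 were higher, beside 3.84%, 5.04% and 5.33% of all probe sets. Parp12, an antiviral ADP-ribosyltransferase, was at 356 in transgenic against 67.9 in non-transgenic cells (2.39). Ddx60, a helicase, was at 267 against 80.5 (1.73), and its other probe set was dim. Rtp4, a chaperone of receptors that interferon induces, was at 1194 against 362 (1.72), while a second probe set, dim on both arrays, gave 0.01. Cmpk2, a mitochondrial nucleotide kinase encoded beside Rsad2, was at 729 against 282 (1.37) and at 0.32 by its other probe set. The medians of this list and of the members were not compared by a test. The members were chosen as genes higher on these arrays, which by itself favours a larger median.

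Genes known best as targets of interferon gamma had 6 of 26 probe sets at least 2-fold higher (23.1%), beside 5.24% of all probe sets. Of the 26, 1 was lower, and their median was 0.55. The guanylate-binding protein gene Gbp6 was at 668 in transgenic against 236 in non-transgenic cells , and a second probe set was at 1.31. Gbp7 was at 2113 against 874 (1.27) and at 1.40 by its other probe set. Gbp2 was at 1443 against 858 (0.75), and a probe set marked as cross-hybridising was at 1.43. These 3 genes held all 5 of the list's probe sets at least 2-fold higher that were above the pooled median on the transgenic array.

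Upstream of the effectors, counts are given beside the shares over all probe sets, 5.24% higher by 2-fold and 5.38% lower. Sensors, adaptors and factors that induce interferon had 1 of 32 probe sets at least 2-fold higher (3.1%) and 1 lower, with a median of 0.41. Ifih1, the sensor MDA5 that is itself induced by interferon, was at 311 in transgenic against 116 in non-transgenic cells (1.43). Tlr9, the receptor for unmethylated DNA, was at 70.9 against 201 (-1.50). Negative regulators had 2 of 23 probe sets at least 2-fold higher (8.7%) and 0 lower, with a median of 0.38. Usp18, which blocks the type I receptor and removes the ubiquitin-like Isg15, was at 398 against 143 (1.48). Samhd1, a nucleotide hydrolase, was at 4892 against 6068 by its brightest probe set (-0.31). Its other probe sets gave 0.38, 0.20, 0.89 and, by a probe set marked as cross-hybridising, 1.36.

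Receptors, kinases and transcription factors of the pathway had 0 of 21 probe sets at least 2-fold higher, beside 5.24% of all probe sets. Of the 21, 2 were lower, beside 5.38%, and their median was -0.11. Without scaling, 3 were lower, beside 7.27% of all probe sets, and the median was -0.27. After quantile normalization the median was -0.30, and after loess it was -0.31. Stat2, a subunit of the factor that binds the ISRE, was at 653 in transgenic against 1401 in non-transgenic cells (-1.10), while a second probe set gave -0.31. The receptor kinase gene Jak1 was at 9194 against 11716 by its brightest probe set (-0.35) and at -1.25 by its dimmest. The interferon genes themselves, of which 9 of the 20 listed were read, were dim. Of their 9 probe sets, 7 lay under the pooled median on both arrays. By 2-fold, 0 were apart in either direction, though 1 was higher after loess. Ifna4, Ifna5, Ifna9 and Ifna11 lay at or under the floor on both arrays, which sets their log2 ratios to 0. Ifng, the gene of interferon gamma, was at 103 against 76.3 (0.44) and Ifna2 at 60.1 against 105 (-0.81). Ifnb1, picked once its values were known, was at 55.0 against 28.6 (0.94), with both values under the pooled median.

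**Figure D5:**
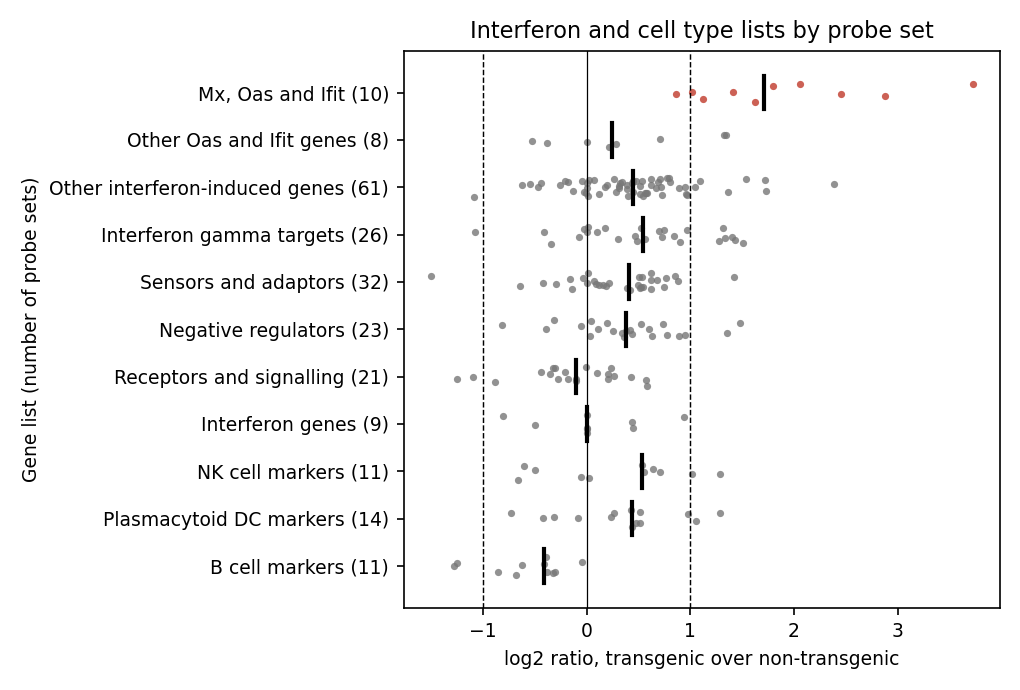
Log2 ratio of transgenic over non-transgenic intensity for each probe set (points, spread vertically for visibility) of the members (red) and of interferon pathway and cell type lists (grey); bars are list medians and dashed lines mark 2-fold. The member median is 1.71, against 0.45 for other interferon-induced genes, -0.11 for receptors and signalling and -0.41 for B cell markers. The members were chosen by these same intensities.

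Marker genes of other cells were measured on the same arrays, where 5.24% of all probe sets were at least 2-fold higher and 5.38% lower. B cell markers were bright, with levels over 7 genes that summed to 127922 in transgenic and 197712 in non-transgenic cells, and 0 of 11 probe sets higher and 2 lower by 2-fold. Cd79a, the Ig-alpha subunit of the antigen receptor, was at 19609 against 46825 (-1.26). Natural killer cell markers summed to 7621 over 9 genes against 4931, with 2 of 11 probe sets at least 2-fold higher and 1 gene under the pooled median on both arrays. The cytotoxic protease gene Gzma was at 2771 against 1369 (1.02) and the receptor gene Klre1 at 470 against 192 (1.29), and under each of the other 3 scalings 1 probe set was past 2-fold. Of the 11 probe sets, 7 had a log2 ratio above 0 and 4 below. Ncr1 was at 0.71, Klrd1 at 0.55, Eomes at 0.53 and 0.64 and Nkg7 at 0.02. Other markers of the list went the other way, Gzmb at -0.61, Prf1 at -0.06 and -0.50 and Klra8, dim on both arrays, at -0.66. Markers of plasmacytoid dendritic cells, which also carry B220 and make type I interferon, summed to 4558 over 5 genes against 3100, with 2 of 14 probe sets at least 2-fold higher, or 1 without scaling. By its brightest probe set, the chemokine receptor gene Ccr9 was at 1453 against 698 (1.06) and Klk1 at 1447 against 593 (1.29). Both of these probe sets are marked as cross-hybridising. The other Ccr9 probe sets above the pooled median gave 0.26 and -0.31, and those of Klk1 0.48, 0.44 and 0.43. Pacsin1 was lower, at -0.42 and -0.73, and Siglech, their defining surface lectin, was at 830 against 882 (-0.09). Ncr1, Klrd1, Eomes, Nkg7, Gzmb, Prf1, Klra8, Pacsin1 and Siglech were picked once their values were known. The part of these cell types in the member differences was not tested.

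T cell markers summed to 1537 over 7 genes in transgenic against 1485 in non-transgenic cells, with 2 of 13 probe sets at least 2-fold higher (1 without scaling) and 1 lower. Thy1, a surface protein of T cells that the labelled cells lack, was at 101 against 208 (-1.04), and Cd4 was at 155 against 38.4 (2.01), while a second Cd4 probe set was under the floor on both arrays. Dendritic cell markers summed to 1322 over 5 genes against 1196, with 1 of 8 probe sets at least 2-fold higher and 2 lower. Itgax, the gene of CD11c, which the labelled cells also lack, was at 804 against 670 (0.26). Batf3 was at 69.8 against 179 (-1.36), and of the 8 probe sets 4 had a log2 ratio above 0 and 4 below. Levels summed for monocyte and macrophage markers were 10983 over 5 genes against 9879. Their median log2 ratio was -0.06, with 3 of 7 probe sets above 0 and 4 below, and Csf1r was at 4090 against 2584. Neutrophil markers summed to 7993 over 5 genes against 8386, with a median of -0.04. Plasma cell markers summed to 27215 over 4 genes against 30310, while their median was 0.25, with 7 of 10 probe sets above 0 and 3 below. Sums are led by the brightest genes and can differ in direction from the median. The 3 erythroid markers were under the pooled median on both arrays. The median log2 ratios of these 6 lists lay between -0.06 and 0.25, and that of the dendritic cell list, 0.05, turned to -0.12 without scaling. The medians of the natural killer and plasmacytoid lists, 0.53 and 0.43, were 0.37 and 0.27 without scaling.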

How the data were processed

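RNA of B cells was measured on 1 single-channel Affymetrix mouse array per genotype. The authors deposited a linear signal intensity for each probe set. How they corrected background and scaled it is not given in the sources used here. Here, the 64 control probe sets of 45101 were set aside. Of the others, 34945 carry 1 gene symbol in the platform annotation, 932 several and 9160 none; 0 of those with several symbols name a member.

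On the log2 scale the transgenic median was lower (a difference of -0.16, beyond a limit of 0.1), so the arrays were multiplied by 1.06 and 0.947 to share the pooled median. A floor was set at the pooled 25th percentile. Members are the 10 symbols given; 7 interferon lists and 9 cell type lists were counted over all probe sets of their genes, and a gene is given by its brightest probe set. The genes named from a list were up to 4 with a probe set past 2-fold that was not dim, by size of the ratio of their brightest probe set, or otherwise the 2 brightest. Of each cell type list these were the brightest gene and up to 3 past 2-fold, of which only some are given. The members and lists were chosen with earlier results of these data known. No test was possible with a single array for each genotype, and that number sets the precision. Symbols were matched by name or RefSeq synonym. Alternatives were other scalings, floors, filters and fold thresholds. The scaling and ratio steps were tested on simulated arrays in which only bright probe sets were changed, so folds of dim ones were not tested. The scripts ran in Python 3.11.15 with pandas 2.3.3, numpy 2.4.6 and, for loess, statsmodels 0.14.6.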

Additional observations from a re-analysis of the deposited data

How the results depend on the processing

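The count of 9 member probe sets at least 2-fold higher was 7 without scaling and 8 after quantile normalization, after loess or with a pseudocount of 16 in place of the floor. It was 6 at a 3-fold threshold, where 1.15% of all probe sets were higher, and 10 at 1.5-fold, where 15.4% were. The count of lower members was 0 in each of these. The median log2 ratio of 1.71 was 1.55 without scaling, 1.62 after quantile normalization and 1.62 after loess, and 1.62 without Mx2, an alternative chosen after seeing the data. With the floor at the pooled median, Mx2, Oas3 and Ifit1 fell to log2 ratios of 2.15, 1.13 and 1.69 because their non-transgenic values lie under that floor. The median of the dendritic cell list, 0.05, was -0.12 without scaling and -0.021 after quantile normalization. Without scaling, the median was 0.29 for other interferon-induced genes and 0.42 for targets of interferon gamma. It was then 0.24 for sensors and adaptors, 0.21 for negative regulators and -0.27 for receptors and signalling. No replicate could be left out with 1 array per group. No paired analysis was possible because each group holds 1 array and no test was made.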

Other observations

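Genes beside the Mx, Oas, Oasl and Ifit groups in RefSeq gene order were read for comparison: the 3 nearest named genes with a probe set on each side and any between. Of 56 probe sets of these 25 genes, 3 were at least 2-fold higher and 3 lower, with a median log2 ratio of 0.00. That median counts probe sets under the floor on both arrays, such as those of Ripk4, Fam3b and Slc16a12. The floor sets their log2 ratio to 0. Over all probe sets 5.24% were higher and 5.38% lower. Beside Ifit, the pantothenate kinase gene Pank1 was at 743 in transgenic against 258 in non-transgenic cells by its most different probe set (1.52). By its brightest it was at 683 against 430 (0.67), and by further probe sets at 0.19 and 0.46. Beside Oas, the phosphatase gene Ptpn11 was at 43.8 against 113 by its most different probe set (-1.37) and at 2531 against 2005 by its brightest (0.34). Beside Mx, Pcp4, a calmodulin-binding peptide gene, was at 524 against 1137 (-1.12). Beside Oasl, the gene 1500011B03Rik was at 635 against 297 by one probe set (1.10) and at -0.30 by its other.

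Probe sets of 1 gene disagreed in several interferon-induced genes. Sp110, a nuclear body protein gene picked once its values were known, had probe sets at 1.09, 0.44 and -0.13. Its relative Sp100, picked likewise, was at 1662 in transgenic against 3530 in non-transgenic cells by one probe set (-1.09) and at -0.26 by the other. Ifi27, picked likewise, was at 2946 against 1017 by a probe set shared between transcripts (1.54) and at 0.62 by its other. Each of the 10 members had 1 probe set.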
